A study of Mus musculus with 58 samples.

Results

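The LAR-type receptor protein tyrosine phosphatases Ptprs, Ptprd and Ptprf and the Slitrk genes Slitrk1, Slitrk2, Slitrk3, Slitrk4 and Slitrk5 were followed across single parvalbumin (PV) interneurons of the mouse ventral subiculum. The 8 genes, of 25648 in the count table, belong to these families and were chosen with earlier results of these data known. Slitrk6 was not among them and is described at the end. All cells came from mice in which the parvalbumin gene drives Cre recombinase and the Ai9 reporter marks the cells that carry it (PV-Cre::Ai9). Each library holds the RNA of 1 cell, taken up as cytosol through a patch pipette. Of 58 cells, 54 carried the quality label Pass: 27 female cells, 17 at postnatal day 40 and 10 at day 42, and 27 male cells, 14 at day 35 and 13 at day 36. The labels name 3 female and 4 male animals but do not tie cells to them, so levels are described over cells and the sexes are compared over 4 pools of summed cells, 1 for each sex and age.

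LAR-type phosphatases are transmembrane receptors that sit mainly on axon terminals. Outside the cell they bind a set of postsynaptic adhesion proteins and the heparan sulfate proteoglycans, and inside it they recruit liprins and other scaffolds of the release site. Slitrks are postsynaptic membrane proteins with leucine-rich repeats, and in cultured neurons Slitrk3 acts through Ptprd to induce inhibitory terminals, while the other members described here have been tied mainly to excitatory ones. Because receptor and ligand meet across the synaptic cleft, a PV cell's own phosphatases serve the synapses it makes and its own Slitrks those it receives, and pairing within a cell is co-expression, not contact between the partners.

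Each Pass library held 2.05 to 52.3 M counts (median 11.5 M) and 11591 to 14351 genes with a count. All 7 PV interneuron markers had a median above 1 CPM (counts scaled to the cell's total), and their summed level was 2574 to 8386 CPM in female cells and 2115 to 9265 CPM in male cells. Gad1 alone had a median of 3560 CPM, against 5349 CPM for the PV sum. Pvalb itself ran from 1.18 to 788 CPM and reached 10 CPM in 47 of 54 cells. Of the marker lists of other cells, all 4 endothelial, 5 of 7 excitatory neuron, 4 of 6 astrocyte, 4 of 5 oligodendrocyte precursor, 2 of 6 oligodendrocyte, 0 of 6 microglial and 1 of 5 red blood cell markers had a median under 1 CPM. Excitatory neuron markers summed to 33.0 to 615 CPM in female cells and 22.6 to 1067 CPM in male cells (median 116 CPM over all cells), and Camk2a was at 10 CPM or above in every cell. Astrocyte markers summed to 76.5 to 5020 CPM in female cells and 205 to 1482 CPM in male cells. Aldoc alone had a median of 667 CPM, against 686 CPM for the astrocyte sum, and was at 10 CPM or above in every cell. Oligodendrocyte markers summed to 96.2 to 2307 CPM in female cells and 151 to 12813 CPM in male cells. Microglial markers summed to 28.6 to 9233 CPM in female cells and 5.42 to 2482 CPM in male cells. Red blood cell markers summed to 12.3 to 29770 CPM in female cells and 3.10 to 4747 CPM in male cells. Of 8 markers of other interneurons, 3 had a median under 1 CPM. These 8 summed to 9.29 to 1972 CPM in female cells and 68.3 to 7354 CPM in male cells. Among them Cck had a median of 148 CPM, against 86.9 CPM for Pvalb, and reached 10 CPM in 48 of 54 cells. The part of these cells' RNA in the levels below was not tested, beyond the values of rho given with some lists. In 14 of 54 cells Sst, the marker of another interneuron class, was at or above Pvalb.

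On GRCm38 (GENCODE vM21) the phosphatase genes are all on the minus strand: Ptprs at chr17:56412426-56476483, Ptprd at chr4:75941238-78211961 and Ptprf at chr4:118208213-118291405. Slitrk1 is at chr14:108908800-108914158 (minus), Slitrk2 at chrX:66649318-66661393 (plus), Slitrk3 at chr3:73047265-73057803 (minus), Slitrk4 at chrX:64264885-64276996 (minus) and Slitrk5 at chr14:111675097-111683141 (plus).

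Slitrk1 and Slitrk5 lie on chromosome 14, 2.76 Mb apart on opposite strands, and in these cells they were the lowest of the 5 Slitrks and the one most often highest. Their promoter windows are shown for that reason, each running from 250 bases before the RefSeq start to 50 bases after it on GRCm38.p6, read along the gene's strand. The Slitrk1 window is chr14:108914190-108914489 (minus strand) and the Slitrk5 window chr14:111675777-111676076 (plus strand). The Slitrk5 window lies inside the GENCODE span of the gene given above. Capitals mark GGGCGG or its reverse complement.
Slitrk1: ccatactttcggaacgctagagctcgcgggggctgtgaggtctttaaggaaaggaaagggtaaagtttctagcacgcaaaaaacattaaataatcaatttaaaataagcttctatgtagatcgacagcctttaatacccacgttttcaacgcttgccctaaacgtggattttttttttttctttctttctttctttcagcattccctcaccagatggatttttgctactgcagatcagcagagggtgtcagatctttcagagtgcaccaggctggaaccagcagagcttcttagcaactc
Slitrk5: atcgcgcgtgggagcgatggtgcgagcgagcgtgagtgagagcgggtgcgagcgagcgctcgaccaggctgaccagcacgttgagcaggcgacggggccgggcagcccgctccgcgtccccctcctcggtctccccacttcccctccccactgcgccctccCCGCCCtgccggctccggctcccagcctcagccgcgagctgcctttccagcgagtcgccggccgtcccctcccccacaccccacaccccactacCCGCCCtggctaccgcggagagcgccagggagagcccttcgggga
The Slitrk5 window held 2 such matches, 35 CpG dinucleotides and a GC content of 74.3%, whereas the Slitrk1 window held 0 matches, 9 CpGs and 42.3% GC. The Slitrk3 window, not printed, held 0 matches and 9 CpGs like that of Slitrk1, with 58% GC. The Ptprf window held 3 matches and 30 CpGs. The Slitrk2 windows held 0 and 1 matches with 8 and 17 CpGs, and the Ptprs windows 3 and 0 matches with 18 and 21 CpGs. Whether the windows bear on the levels was not tested. Over all 32851 RefSeq windows of this length the median was 7 CpGs and 52.7% GC, and 35.7% of windows held GGGCGG on either strand. Windows were found for 6 of the 8 genes. TATAAA was in 0 of them on either strand, against 13.6% of all windows.

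Ptprs, which encodes PTP sigma, a receptor for both Slitrks and proteoglycans, was the most abundant and least variable phosphatase over cells. Its level was 64.02 CPM in the lowest cell, 216 CPM in the median cell and 454 CPM in the highest cell, and its quartiles were 178 and 288 CPM. No cell lacked it: all 54 were above 10 CPM. The coefficient of variation over cells (CV, SD over mean) was 0.384, and 6.21% of the 15099 genes with a count in at least 10 cells had a lower one. The median CV over those genes was 1.07.

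Ptprd, which encodes PTP delta, the phosphatase through which Slitrk3 is known to act, was also found in every cell but over a much wider range. It was at 3.88 CPM in the lowest cell (female cell 18), 69.3 CPM in the median cell and 302 CPM in the highest cell (male cell 2). It reached 10 CPM in 50 of 54 cells. Its CV was 0.812, higher than that of 36.2% of genes.

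Ptprf, which encodes LAR itself, ranged widely over cells, with a CV of 1.31, higher than that of 58.6% of genes. It was at 0 CPM in the lowest cell, 9.01 CPM in the median cell and 125 CPM in the highest cell (female cell 1). Its quartiles were 0.795 and 33.5 CPM, the upper 42.1 times the lower. Under 1 CPM were 17 cells, between 1 and 10 CPM were 11, and at 10 CPM or above were 26 of 54 (48.1%, exact 95% binomial interval 34.3 to 62.2%, which covers counting error between cells only). By pool, Ptprf reached 10 CPM in 8 of 17 female P40 cells and 5 of 10 female P42 cells, against 10 of 14 male P35 cells and 3 of 13 male P36 cells. The widest gap in these shares was between the 2 male pools. Thinned to 2054581 counts per cell, the total of the shallowest cell, 45 of 54 cells still had a Ptprf count, against 52 at full depth.

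Compared per length, as TPM (CPM weighted by the length of a gene's merged exons), Ptprs led the phosphatases in every cell. It was the highest of the 3 in 54 of 54 cells, against 52 by CPM with no correction for length, where Ptprd was the highest in 2 female P40 cells. Its level had a median of 45.2 TPM against 9.34 TPM for Ptprd and 3.08 TPM for Ptprf. The ratio of Ptprs to Ptprd in TPM was 1.20 in the cell where it was smallest, 4.78 in the median cell and 82.0 where it was largest. The lower places were not fixed: Ptprd exceeded Ptprf in 42 of 54 cells (77.8%, interval 64.4 to 88.0%). Ptprs made up 46.4 to 95.3% of the summed TPM of the family, with a median of 75.6%, while Ptprf made up 0 to 44.8%.

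**Figure D1:**
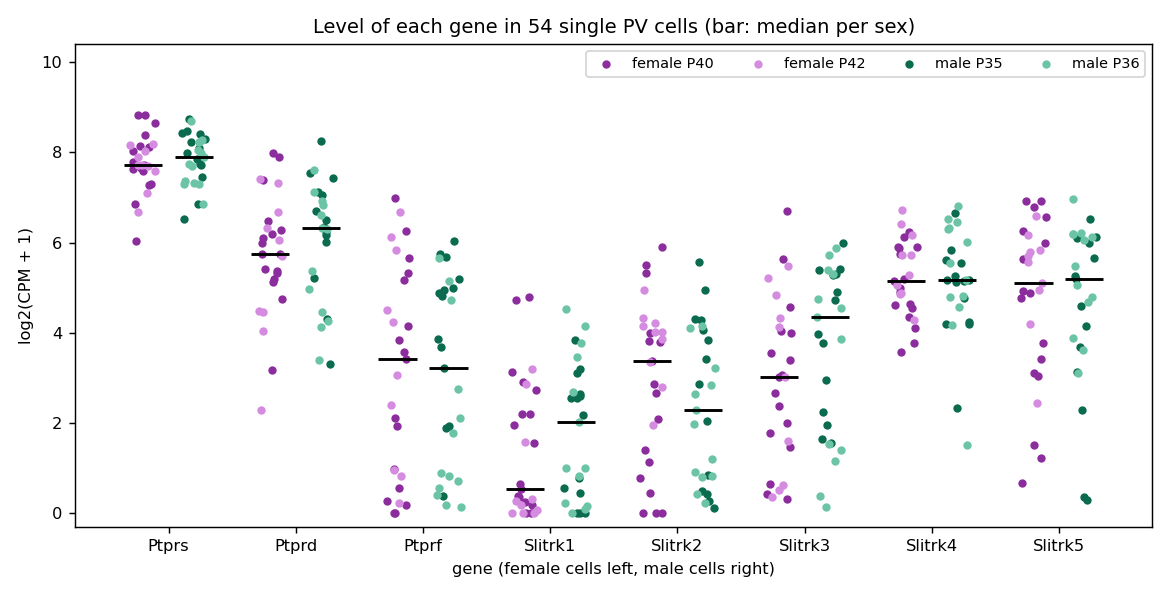
Level of each gene in the 54 Pass cells in log2(CPM + 1), 1 point per cell, coloured by sex and age pool, female cells left of male cells, with bars at the median of each sex. Ptprs sits in a narrow high band from 64.02 to 454 CPM, while Ptprf, Slitrk1, Slitrk2 and Slitrk3 spread down to or near 0.

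Slitrk4 and Slitrk5 were the Slitrks found at substantial level in most cells. Slitrk4, an X-linked member tied mainly to excitatory terminals, was at 1.83 CPM in the lowest cell, 35.0 CPM in the median cell and 111 CPM in the highest cell, and reached 10 CPM in 52 of 54 cells. Its CV of 0.616 was the lowest of the 5 Slitrks and higher than that of 22.4% of genes. Slitrk5, whose loss in mice causes excessive grooming, had nearly the same median, 34.6 CPM, but ran from 0.230 CPM in male cell 21 to 123 CPM in male cell 12. It reached 10 CPM in 42 cells and its CV was 0.805, higher than that of 35.8% of genes.

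Slitrk3, the inhibitory organiser of the family, had at least 1 count in all 54 cells, yet its level covered nearly the whole range of the family. It was at 0.104 CPM in the lowest cell (male cell 14), 11.6 CPM in the median cell and 103 CPM in the highest cell (female cell 2). It was under 1 CPM in 8 cells, between 1 and 10 CPM in 18 and at 10 CPM or above in 28. Its CV was 1.13, higher than that of 52.0% of genes. Male cell 14 was also the lowest for Slitrk4, at 1.83 CPM, while its Slitrk5 stood at 26.7 CPM.

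Slitrk2 and Slitrk1 were the sparse members. Slitrk2, the other X-linked member, was at 0 CPM in the lowest cell, 6.21 CPM in the median cell and 59.1 CPM in the highest cell (female cell 1), and reached 10 CPM in 21 of 54 cells. Slitrk1, which has been studied as a candidate gene for Tourette syndrome in humans, was at 0 CPM in the lowest cell, 1.003 CPM in the median cell and 26.6 CPM in the highest cell (female cell 20). It reached 10 CPM in 7 cells, and 9 cells had no count of it. The CV was 1.21 for Slitrk2 and 1.49 for Slitrk1, higher than that of 55.1% and 63.3% of genes. At the thinned depth 36 cells still had a Slitrk1 count, against 45 at full depth. The 5 cells with most Slitrk1 counts held 51.6% of all its counts, against 24.2% for Ptprs. These are raw counts, not scaled to the cells' totals, so deeper cells weigh more. Counting error made up 0.227 to 1.30% of the variance over cells of the 8 genes, if each count is taken as a separate molecule. The libraries have no stated molecular identifiers, so amplified copies may widen this.

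Which Slitrk led differed from cell to cell. By TPM, Slitrk5 was the highest of the 5 in 32 of 54 cells (interval 45.03 to 72.4%), Slitrk4 in 12, Slitrk3 in 8 and Slitrk1 and Slitrk2 in 1 each. Slitrk5 led in 8 cells of each of the 4 pools, that is 8 of 17 and 8 of 10 female cells at P40 and P42 and 8 of 14 and 8 of 13 male cells at P35 and P36. By CPM, with no correction for length, Slitrk5 led in 25 cells, Slitrk4 in 17 and Slitrk3 in 8. The leading Slitrk made up 32.7 to 94.7% of the family's summed TPM in its cell, with a median of 54.8%.

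**Figure D2:**
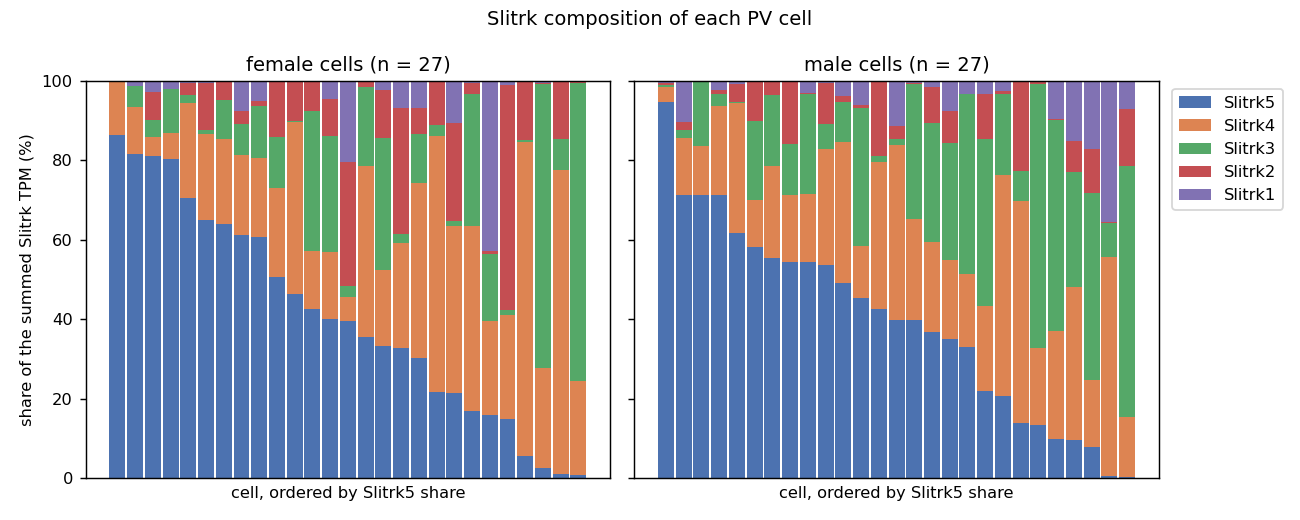
Share of each Slitrk in the summed Slitrk TPM of a cell, in percent, 1 bar per Pass cell, female cells in the left panel and male cells in the right one, ordered by Slitrk5 share. Slitrk5 is the highest in 32 of 54 cells, and Slitrk4 or Slitrk3 in 12 and 8 others.

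At 10 CPM, a level chosen after values were seen, most cells held several Slitrks. Of the 54 cells, 3 held 1 of them, 17 held 2, 24 held 3, 9 held 4 and 1 held all 5. The commonest set was Slitrk3, Slitrk4 and Slitrk5, in 15 cells, followed by Slitrk4 with Slitrk5 in 8 and Slitrk2 to Slitrk5 together in 7. In all, 14 different sets were seen. Exactly 2 Slitrks reached the level in 13 female and 4 male cells, and exactly 3 in 9 female and 15 male cells. Exactly 1 reached the level in 0 female and 3 male cells. Exactly 4 did so in 5 female and 4 male cells, and all 5 in 0 female cells and 1 male cell. These counts are over cells that may share an animal, and the difference between the sexes was not tested.

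In order of median TPM the genes ran Ptprs (45.2), Slitrk5 (20.2), Slitrk4 (12.3), Ptprd (9.34), Slitrk3 (7.37), Ptprf (3.08), Slitrk2 (2.43) and Slitrk1 (0.592). The ranges between the quartiles overlapped for every pair of neighbours in this order. Within cells Ptprs exceeded Slitrk5 in 45 of 54 cells and Slitrk3 exceeded Ptprf in 39. The other neighbours were close: Slitrk5 exceeded Slitrk4 in 34 cells, Slitrk4 exceeded Ptprd in 34, Ptprd exceeded Slitrk3 in 32, Slitrk2 exceeded Slitrk1 in 32 and Ptprf exceeded Slitrk2 in 29. The length used matters for Ptprs and Ptprd, whose merged exons (14990 and 22822 bases) are much longer than their longest coding transcripts (6855 and 9899 bases). With the longest coding transcript in place of the merged exons, Slitrk4 exceeded Ptprd in 20 of 54 cells and Ptprs exceeded Slitrk5 in 52.

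Most pairs of the genes were weakly correlated within cells. The 54 cells differed in sequencing depth, and differences in depth or harvest can add covariation. The part of harvest was not tested. Over these cells the 28 pairs had Spearman rho of CPM from -0.16 for Ptprd with Slitrk5 to 0.38 for Ptprf with Slitrk2, and the median was 0.06. Positive values were found in 16 pairs, and 2 pairs reached 0.3 in size. For comparison, the middle 95% of rho with each of 11373 other genes ran from -0.291 to 0.336 for Ptprs, from -0.290 to 0.321 for Ptprf and from -0.258 to 0.276 for Slitrk2. Ptprf with Slitrk2 (0.380) lay above the upper bound of both its genes, as did Ptprs with Ptprf (0.339), by little for Ptprs. These were the 2 highest of 28 pairs, and a middle 95% leaves some genes outside for any member. The 10 Slitrk pairs lay between -0.13 and 0.18, and over all 54 cells the level of one Slitrk told little of that of another. Within pools, of 10 to 17 cells each, values varied more widely and in sign. Slitrk4 with Slitrk5 was -0.46 in female P40 and 0.65 in male P35 cells. Slitrk1 with Slitrk2 was -0.57 in male P35 and 0.58 in male P36 cells. The summed Slitrk TPM had a CV of 0.425, against 0.458 if the genes had no covariance. For the summed phosphatases the CV was 0.400, against 0.353 with no covariance.

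**Figure D3:**
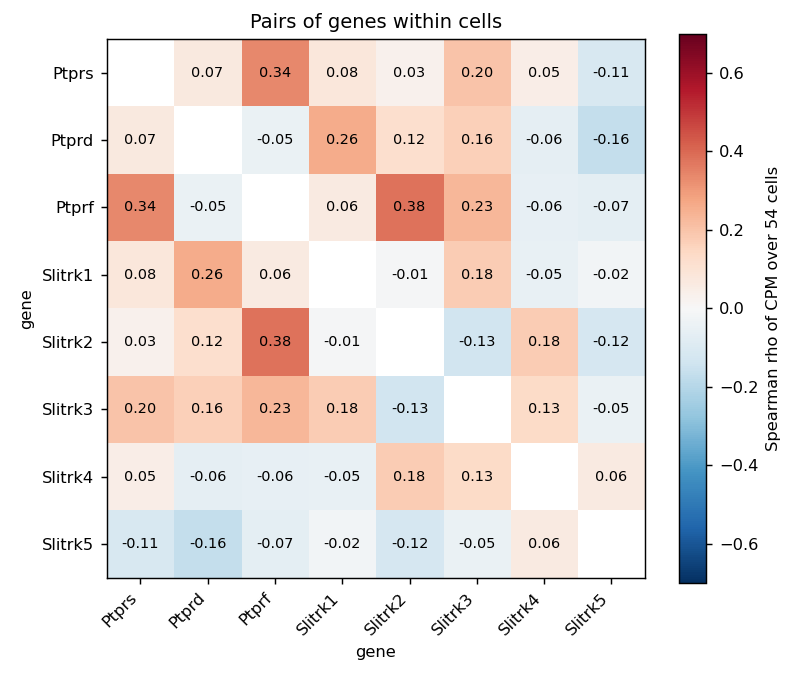
Spearman rho of CPM over 54 cells for each of the 28 pairs, in colour and in digits. Most cells of the matrix are pale, and the 2 darkest are Ptprf with Slitrk2 (0.38) and Ptprf with Ptprs (0.34).

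Both stronger pairs involved Ptprf. Ptprf and Slitrk2 were both at 10 CPM or above in 14 cells, Ptprf alone in 12, Slitrk2 alone in 7 and neither in 21. Their rho of 0.38 was 0.30 in thinned cells and 0.28 with the number of genes detected held constant, and within pools it was 0.43 and 0.09 in female P40 and P42 cells and 0.16 and 0.20 in male P35 and P36 cells. The number of genes detected itself had a rho of 0.43 with Ptprf and 0.33 with Slitrk2, and its part in the pairing was only tested by that partial value. Centred within pools Ptprf with Slitrk2 had a rho of 0.30, and in the 40 cells with Pvalb above Sst 0.35. The thinned, partial and centred values of this pair lie under the upper bound given above for Ptprf over all cells, though above that for Slitrk2. Ptprs with Ptprf had a rho of 0.34, which was 0.35 in thinned cells and 0.37 with genes detected held constant. It was 0.31 centred within pools, and in the 40 cells with Pvalb above Sst it was 0.23. Both of these values lie under the upper bounds given above for Ptprs and Ptprf over all cells. Within pools the rho of Ptprs with Ptprf was 0.05 and 0.81 in female P40 and P42 cells and 0.32 and 0.66 in male P35 and P36 cells.

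**Figure D4:**
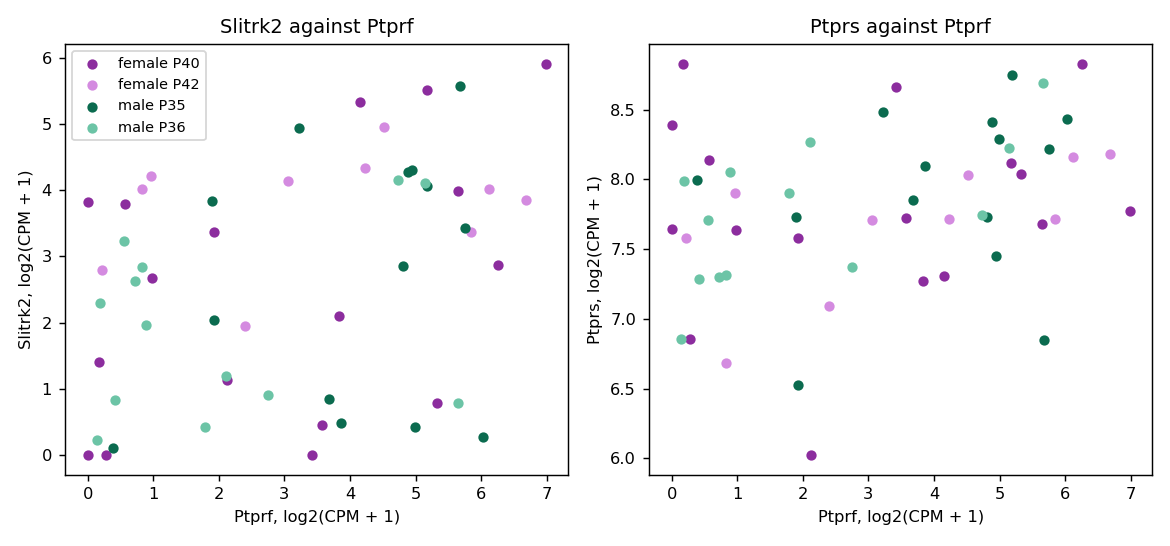
Slitrk2 (left) and Ptprs (right) against Ptprf in log2(CPM + 1), 1 point per cell, coloured by pool. In the left panel 14 cells are at 10 CPM or above for both genes, and cells high in one and low in the other are present too.

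The known partners Ptprd and Slitrk3 had a rho of 0.16 over cells, and both reached 10 CPM in 26 of 54 cells. By pool it was 0.00 and 0.39 in female P40 and P42 cells and 0.12 and -0.05 in male P35 and P36 cells. Members on 1 chromosome were also weakly paired. Slitrk1 and Slitrk5 on chromosome 14 had a rho of -0.02, Slitrk2 and Slitrk4, 2.37 Mb apart on the X chromosome, 0.18, and Ptprd and Ptprf, 40.0 Mb apart on chromosome 4, -0.05.

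The genes most like each member were sought among 11373 genes with a count in at least 40 cells, so the top values are the extremes of many. Ptprs was most like Syp (rho 0.63), the synaptic vesicle protein synaptophysin, Scn8a (0.62), a sodium channel, and Clstn1 (0.62), a calsyntenin. Ptprd was most like Hdac2 (0.58), Slc24a3 (0.57) and Opcml (0.56), and Ptprf most like Gm10401 (0.56), Sppl3 (0.56) and Lpcat1 (0.51). Slitrk1 was most like Fyn (0.61), a tyrosine kinase, Hey1 (0.56) and Zfp804b (0.54). Slitrk2 was most like Brinp3 (0.58), Ggh (0.52) and 2610524H06Rik (0.47), and Slitrk3 most like Snapc4 (0.59), Reep3 (0.53) and Nck2 (0.50). Slitrk4 was most like Ndfip1 (0.67), Ddost (0.66) and Hspa5 (0.53), the last a chaperone of the endoplasmic reticulum, and Slitrk5 most like Fh1 (0.51), Adprhl2 (0.46) and Gemin2 (0.45).

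Marker sums and membrane values were set against the members over cells. The summed excitatory neuron markers had a rho of -0.41 with Slitrk5, the summed oligodendrocyte precursor markers -0.30, and the summed PV markers 0.26. The summed astrocyte markers, of which Aldoc was by far the most abundant, had a rho of -0.40 with Slitrk1. The part of marker RNA in these levels was not tested. Of the recorded membrane values, in 49 cells, the resting potential had a rho of -0.30 with Ptprs and the membrane resistance -0.26 with Ptprd. The other membrane values had a rho between -0.18 and 0.18.

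Over cells, the sexes overlapped for every member. Slitrk3 had a median of 7.15 CPM in female cells (0.236 to 103) and 19.3 CPM in male cells (0.104 to 62.7). Slitrk2 had a median of 9.36 CPM in female cells (0 to 59.1) and 3.89 CPM in male cells (0.0765 to 46.7). Slitrk1 had a median of 0.463 CPM in female cells and 3.09 CPM in male cells. Ptprd was at 52.9 CPM in the median female cell and 78.5 CPM in the median male cell, a gap far inside the spread of either. The medians of the remaining genes were at more similar levels as a ratio, for Ptprs (209 CPM female, 238 CPM male), Ptprf (9.69 CPM female, 8.33 CPM male), Slitrk4 (34.6 CPM female, 35.0 CPM male) and Slitrk5 (33.4 CPM female, 35.8 CPM male).

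Summed into pools, no member passed the test between the sexes. The series' title names sex as a subject, and female was compared with male by edgeR's quasi-likelihood test on 2 pools against 2, so p-values measure the spread between these pools only. The female pools (P40 and P42) were the older ones (male P35 and P36), so sex and age cannot be told apart. Of the 8 members, 0 were called at a Benjamini-Hochberg adjusted p under 0.05 and 0 had an unadjusted p under 0.05. Over all 14933 genes tested, 2 were called, or 0.0134%, and 823 had an unadjusted p under 0.05. DESeq2 called 0 of the 8 as well, and 186 of all 14933 genes.

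Pools are given in TMM-scaled CPM. Slitrk3 was at 10.98 and 12.5 CPM in the female P40 and P42 pools, against 24.7 and 19.8 CPM in the male P35 and P36 pools. Both female pools lay below both male pools, and the log2 difference, female minus male, was -0.92 (SE 0.50, edgeR adjusted p = 0.958) and -0.47 in thinned cells. Slitrk2 was at 16.2 and 15.4 CPM in the female pools, against 12.2 and 4.08 CPM in the male pools. Both female pools lay above both male pools, with a difference of 0.96 (SE 0.71, edgeR adjusted p = 0.981), which was 1.96 without male P35, 0.38 without male P36 and 0.62 without female cell 3. Pools of the sexes did not overlap for these 2 of 8 members, against 33.9% of all genes tested.

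Ptprf was at 22.2 and 30.3 CPM in the female pools, against 30.3 and 7.75 CPM in the male pools, so the pools of male cells differed from each other more than the sexes did. The log2 difference was 0.46 (SE 0.65, edgeR adjusted p = 0.994), and without male P36 it was -0.21. Ptprs was at 246 and 211 CPM in the female pools, against 284 and 222 CPM in the male pools, a difference of -0.15 (SE 0.20). Ptprd was at 74.4 and 65.9 CPM in the female pools, against 110 and 73.5 CPM in the male pools, a difference of -0.39 (SE 0.28), which was -0.067 without male P35 and -0.65 without male P36. The pools overlapped for Ptprs and, though narrowly, for Ptprd.

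Slitrk4 was at 36.6 and 51.9 CPM in the female pools, against 36.0 and 57.0 CPM in the male pools, a log2 difference of -0.07 (SE 0.36). Slitrk5 was at 38.2 and 42.9 CPM in the female pools, against 27.7 and 47.6 CPM in the male pools, a difference of 0.10 (SE 0.37). Slitrk1 was at 4.73 and 1.33 CPM in the female pools, against 3.77 and 4.79 CPM in the male pools, a difference of -0.50 (SE 1.20). For these genes the pools of the sexes overlapped. Standard errors of this size leave room for differences well over the fitted ones, above all for Slitrk1.

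**Figure D5:**
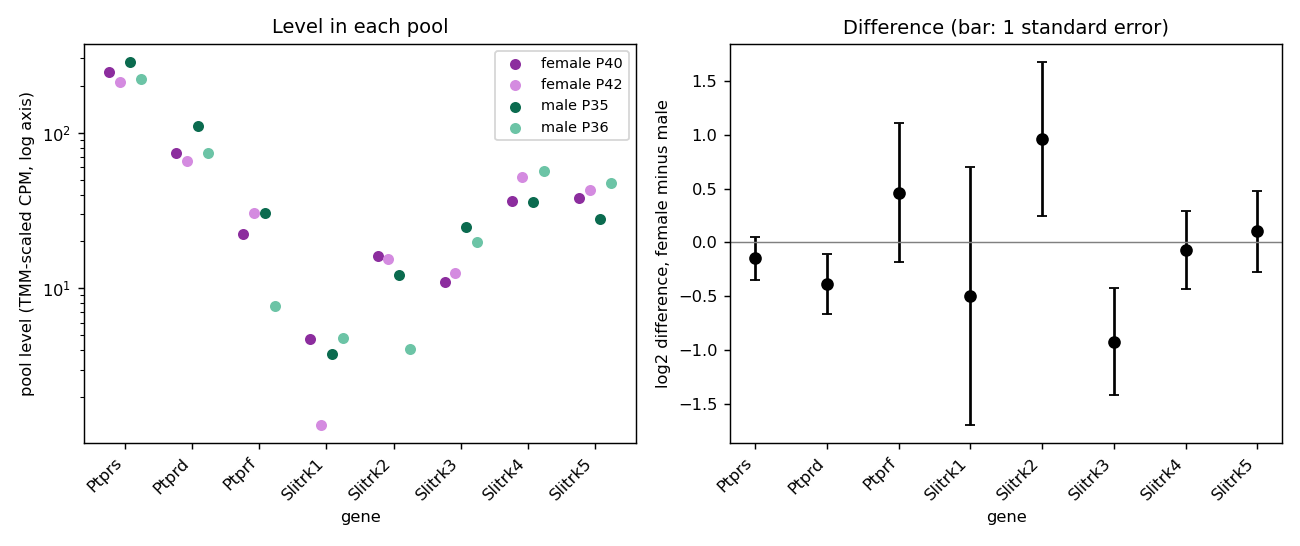
Left, level of each gene in the 4 pools, in TMM-scaled CPM on a log axis, female pools left of male pools; right, log2 difference, female minus male, with bars of 1 SE. Pools of the sexes are apart for Slitrk2 and Slitrk3 only, of the 8 genes, and male P36 is the lowest pool for Ptprf.

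Genes that work with the phosphatases were counted by list. Among other postsynaptic ligands of LAR-type phosphatases, 6 of 7 were tested, 0 were called and 2 had a higher and 4 a lower fitted level in female pools, with a median log2 difference of -0.17. The most abundant were Ntrk3, the neurotrophin receptor TrkC (median 20.7 TPM per cell, log2 difference 0.33, SE 0.26), and Lrrc4b, the netrin-G ligand family member NGL-3 (11.9 TPM, -0.23, SE 0.62). Of the heparan sulfate proteoglycans 8 of 9 were tested, 0 were called and 3 had a higher and 5 a lower fitted level in female pools, with a median of -0.25. Sdc3, a syndecan, had 27.4 TPM and a difference of -0.46 (SE 0.25), and Gpc1, a glypican, 17.9 TPM and -0.35 (SE 0.47).

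All 10 intracellular partners were tested, 0 were called and 4 had a higher and 6 a lower fitted level in female pools, with a median log2 difference of -0.25. Ctnnb1, the beta-catenin that LAR binds, was the most abundant at a median of 90.6 TPM per cell. Its pools were at 148 and 131 CPM in female cells, against 204 and 202 CPM in male cells, a difference of -0.54 (SE 0.19, edgeR adjusted p = 0.878). Caskin1, a scaffold whose fly relative binds LAR, had 25.5 TPM and a difference of -0.31 (SE 0.29). The median over the 8 members was -0.11 and over all genes tested 0.00.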

How the data were processed

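Per the labels' protocols, libraries were prepared with the Nextera XT kit. The submitters' processing notes name STAR, edgeR and the build GRCm38; the sources used here give no version, counter, annotation or strand setting. The table the authors deposited holds raw counts (25648 genes, 58 cells); 0 columns lacked a labelled cell. The members and lists were chosen with earlier results of these data known. The 4 Fail cells were left out of comparisons.

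CPM used each cell's total. TPM used merged exon lengths from GENCODE vM21 for the 22511 genes with a matching symbol (96.78% of counts). Pass cells were summed into 4 pools (123 to 229 M counts), since labels do not tie cells to animals; pools are independent only if no animal spans 2 ages. The test took genes counted in at least 10 cells that passed filterByExpr and used edgeR 4.0.16 (R 4.3.3): TMM, quasi-likelihood F test, two-sided, Benjamini-Hochberg adjusted p under 0.05 as threshold. SE is the absolute log2 difference over the square root of F. Alternatives were other scaling (RLE), DESeq2 1.42.0, limma 3.58.1 on mean log2(CPM + 1), other filters, thinned cells and leaving out each pool. Intervals are exact (Clopper-Pearson, 95%) and cover counting error only. Named genes were the 8 members, the 2 most abundant of each list by median TPM with any called gene, and for each member the 3 genes of highest rho; cells were singled out as the highest or lowest of a member. Promoter windows are RefSeq's. Tools were Python 3.11.15, pandas 2.3.3, scipy 1.17.1 and matplotlib 3.10.9.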

Additional observations from a re-analysis of the deposited data

How the results depend on the processing

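No member was called under any alternative (lowest adjusted p 0.634). Over all genes edgeR called 2; DESeq2 called 186 and edgeR with no filter 111, and without 1 pool 0 to 26: 26 without female P40, 6 without female P42, 1 without male P35 and 0 without male P36 (421 at an unadjusted p under 0.05 there). The sign of the log2 difference changed for 5 members when a pool was left out. The range was -0.31 to 0.042 for Ptprs (0.042 without male P35), -0.21 to 1.76 for Ptprf (-0.21 without male P36), -1.67 to 0.16 for Slitrk1 (0.16 without female P42), -0.37 to 0.30 for Slitrk4 (0.30 without male P36, 0.17 without female P40) and -0.23 to 0.55 for Slitrk5 (-0.23 without male P35). Slitrk4 was 0.15 by limma and 0.012 in thinned cells. Ptprd, Slitrk2 and Slitrk3 kept their sign under every alternative but not their size: Ptprd ranged from -0.65 (without male P36) to -0.067 (without male P35), Slitrk2 from 0.38 (without male P36) to 1.96 (without male P35) and Slitrk3 from -1.07 (without male P36) to -0.47 (thinned cells). Without female cell 3 Slitrk2 was 0.62, and in the cells with Pvalb above Sst Ptprd was -0.13. Alternatives chosen after seeing the data were leaving out female cell 3, which held 22.8% of the counts of female P40, and using the 40 cells with Pvalb above Sst. In those 40 cells Ptprf was -0.37 and Slitrk5 -0.052, and the median of Slitrk5 was 44.8 CPM against 34.6 CPM. The causes were not tested. Of 168 values of rho under alternatives, 163 moved by less than 0.14. The 5 that moved more were all in the 40 cells with Pvalb above Sst. Among them Ptprf with Slitrk4 went from -0.06 to -0.28, Ptprs with Slitrk4 from 0.05 to -0.16 and Ptprf with Slitrk1 from 0.06 to 0.24. A lone pool is assumed to vary like the others. Thinned to the depth of the shallowest cell, 36 cells had a Slitrk1 count (45 at full depth), 45 a Slitrk2 count (51) and 45 a Ptprf count (52). No paired analysis was possible because female and male cells come from different animals and the labels name no pairing between them.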

Other observations

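The 4 cells labelled Fail, with 0.545 to 5.08 M counts, also held the phosphatases. Ptprs was at 161 and 99.8 CPM in the female Fail cells and 365 and 283 CPM in the male Fail cells. Ptprd was at 71.5 and 26.0 CPM in the female Fail cells and 121 and 317 CPM in the male Fail cells, the last above the highest Pass cell (302 CPM). Slitrk3 was at 1.83 and 1.38 CPM in the female Fail cells and 28.7 and 38.6 CPM in the male Fail cells, from 1 and 7 counts in female cells and 24 and 23 counts in male cells. Slitrk5 was at 16.5 and 2.76 CPM in the female Fail cells and 56.2 and 45.3 CPM in the male Fail cells. With 2 cells of each sex no comparison was made.

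Slitrk6, the remaining member of the Slitrk family, had a count in 4 of 54 Pass cells, and its highest level was 9.11 CPM.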
